A study of Homo sapiens with 12 samples.

Results

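The genes described here are 10 members of the NF-kB system: the inhibitors NFKBIA, NFKBIE and TNFAIP3, the subunits NFKB1, NFKB2, REL and RELB, and the target genes BIRC3, TRAF1 and ICAM1. A probe was taken as a member when the platform annotation paired it with 1 of these symbols, which gave 13 of 48803 probes, for 9 of the 10 genes (of 18852 genes named on the array). BIRC3 was named by no probe in the annotation used here and has no value below. Expression was measured on 12 Illumina bead arrays of L-540, an established Hodgkin lymphoma line grown in culture. There were 3 arrays in each of 4 groups, all harvested after 24 h: untreated control, 100 nM givinostat (a histone deacetylase inhibitor), 5 µM sorafenib (a multikinase inhibitor) and both drugs at those doses, called the combination. Each group's arrays carry the letters A, B and C, and the labels do not say whether the letters mark separate cultures, so every p-value below reflects the scatter among these arrays alone, which could be purely technical. All groups are the same unmodified cell line, 1 line only, so the values describe L-540 and no other Hodgkin lymphoma cell.

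NF-kB transcription factors are dimers of Rel-family proteins that inhibitor proteins of the IkB family hold in the cytoplasm until a kinase complex marks the inhibitor for destruction. Among the first genes that the freed dimers switch on are their own brakes, NFKBIA, NFKBIE and TNFAIP3, and several subunits, so the mRNA of these genes is commonly read as a sign of pathway activity. Hodgkin lymphoma cells are known for NF-kB activity that persists without an outside stimulus, through both the canonical arm, which uses NFKB1 and REL, and the alternative arm, which processes NFKB2 and pairs it with RELB.

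The upstream sequences of 4 members are shown because these genes are textbook examples of NF-kB genes that carry the factor's own binding motif. The 4 windows shown all hold a match, so they do not stand for the members as a whole. Each line is the 250 bases before an annotated transcription start, read 5′ to 3′ on the gene's strand from RefSeq promoters of build GRCh38.p14, and capitals mark every match to the kappaB consensus on either strand.
NFKBIA, chr14:35404750-35404999, minus strand: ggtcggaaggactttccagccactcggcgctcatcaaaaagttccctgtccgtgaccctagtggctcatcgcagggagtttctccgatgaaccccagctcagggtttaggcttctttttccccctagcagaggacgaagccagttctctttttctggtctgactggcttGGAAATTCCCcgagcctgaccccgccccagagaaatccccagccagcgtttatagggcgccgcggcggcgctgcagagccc
TNFAIP3, chr6:137867009-137867258, plus strand: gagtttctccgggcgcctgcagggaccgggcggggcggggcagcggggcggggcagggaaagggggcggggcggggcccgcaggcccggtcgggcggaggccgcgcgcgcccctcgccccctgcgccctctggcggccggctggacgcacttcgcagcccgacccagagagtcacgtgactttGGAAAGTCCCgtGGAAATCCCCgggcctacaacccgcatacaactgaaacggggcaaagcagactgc
NFKB1, chr4:102501109-102501358, plus strand: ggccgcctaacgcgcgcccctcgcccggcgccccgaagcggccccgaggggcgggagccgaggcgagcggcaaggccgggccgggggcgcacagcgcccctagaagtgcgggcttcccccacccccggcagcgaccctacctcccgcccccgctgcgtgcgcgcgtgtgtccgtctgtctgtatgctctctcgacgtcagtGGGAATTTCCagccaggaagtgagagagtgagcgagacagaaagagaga
NFKB2, chr10:102394328-102394577, plus strand: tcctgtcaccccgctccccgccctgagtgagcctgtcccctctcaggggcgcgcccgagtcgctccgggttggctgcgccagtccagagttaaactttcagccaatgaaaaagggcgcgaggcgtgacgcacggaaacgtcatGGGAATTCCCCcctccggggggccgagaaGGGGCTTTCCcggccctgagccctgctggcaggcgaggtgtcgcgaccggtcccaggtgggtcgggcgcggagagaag
The NFKBIA window held 1 match, whose first base lay at -81 from the start, and the NFKB1 window held 1 at -49. TNFAIP3 had 2 matches close together, at -67 and -55. The NFKB2 window held 3 matches between -107 and -78, of which a pair overlapped within the first run of capitals.

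The promoter table listed 8 of the 10 members with 13 windows in all, and NFKBIE and RELB were not in it. A match was found in at least 1 window of 6 of these 8 genes: NFKBIA, TNFAIP3, NFKB1, NFKB2, REL and BIRC3. Of the 13 windows 7 held a match. NFKB1 (chr4:102501684-102501933) and NFKB2 (chr10:102393860-102394109) each also had a window with 0 matches. A further NFKB2 window (chr10:102395455-102395704) held 2. The REL window (chr2:60881324-60881573) had 2 overlapping matches, and the BIRC3 window (chr11:102317234-102317483) had 2 separate ones. None was found in the 3 windows of TRAF1 or in the 1 of ICAM1, which says only that these letters are absent there. Over the whole table, 9.96% of 35116 windows and 11.8% of 27305 genes held a match. A match is a description of the sequence and not a measurement of binding.

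Combination B stood apart in brightness, with a median raw intensity of 681.1 where the other 11 arrays had 418.1 to 579.3, and it also had the lowest share of probes detected, 22.4% against 24.6% to 30.9%. Of the Hodgkin cell markers, 5 of 6 passed the detection filter: TNFRSF8 (the receptor CD30), FUT4, FSCN1, IL2RA and IRF4. CCL17 did not pass. IRF4 was detected on 6 of 12 arrays and passed through the sorafenib group alone. The other lists passed with 3 of 9 T cell markers (CD2, CD4 and GATA3), 1 of 5 myeloid markers (CSF1R) and none of the B cell, fibroblast, endothelial or epithelial markers. CD3D, CD3G, CD8A, PAX5, CD79B, LYZ and EPCAM were each detected on 0 of 12 arrays. In RNA from a whole culture, fewer cells that express a gene and less RNA of it per cell cannot be told apart.

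A probe counted as detected on an array at a detection p under 0.05, and it passed the filter when detected on all 3 arrays of at least 1 group. Of the 13 member probes 8 passed, and with the brightest probe for each gene 7 members entered the tests: NFKBIA, NFKBIE, TNFAIP3, NFKB1, NFKB2, RELB and TRAF1. Of these, 5 were detected on all 12 arrays, and NFKBIE and RELB on 11, both missing on combination B. Values below are background-corrected, quantile-normalized log2 intensities, which compare arrays for 1 probe and not 1 probe with another.

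NFKBIA encodes IkB alpha, the main inhibitor of canonical dimers. Its log2 intensity on arrays A, B and C was 15.30, 14.54 and 14.63 in control, 14.98, 13.52 and 13.27 with givinostat, 15.67, 14.48 and 14.75 with sorafenib, and 15.47, 13.57 and 13.62 in the combination. Arrays B and C of givinostat and of the combination were the lowest 4 of the 12, whereas array A was the highest of its group in all 4 groups. The group ranges overlapped in every comparison. Group means ran from sorafenib (14.97 ± 0.62, SD, n = 3) and control (14.82 ± 0.41) to the combination (14.22 ± 1.08) and givinostat (13.92 ± 0.92), and no pair of neighbours in that order passed limma's test.

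TNFAIP3 encodes A20, a ubiquitin-editing enzyme that shuts down signalling to the IkB kinase and is often inactivated in Hodgkin lymphoma. It read 12, 10.75 and 10.70 in control, 11.29, 9.55 and 9.88 with givinostat, 12.04, 10.34 and 10.50 with sorafenib, and 11.56, 9.71 and 9.46 in the combination. Within each letter the givinostat array lay below the control array. The mean of the combination (10.24 ± 1.15) and that of givinostat (10.24 ± 0.92) were close to each other and below control (11.15 ± 0.74).

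NFKBIE encodes IkB epsilon, a further inhibitor of canonical dimers, and its probe was dim. It read 7.36, 7.29 and 7.60 in control, 7.92, 7.20 and 7.61 with givinostat, 7.77, 7.64 and 7.65 with sorafenib, and 7.57, 6.87 and 6.82 in the combination, with the value 6.87 on combination B not above background. The 3 sorafenib arrays lay above all 3 control arrays by a narrow margin and above all 3 combination arrays. NFKBIE was the 1 tested member whose order of means did not place givinostat below control (7.58 ± 0.36 against 7.42 ± 0.16).

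**Figure D1:**
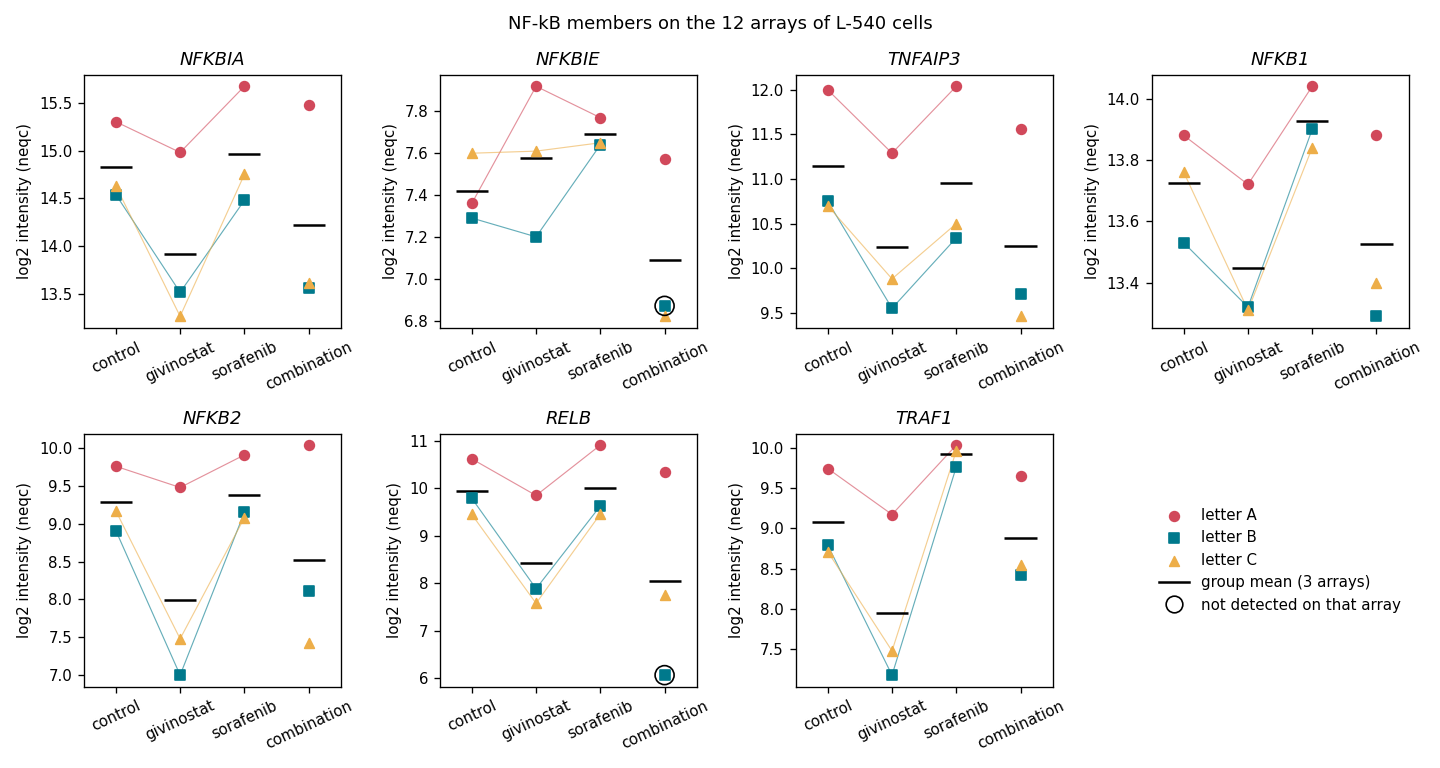
Log2 intensity (vertical axis) of the 7 tested members in the 4 groups (horizontal axis), 1 point per array, with colour and shape for the letter, a thin line joining arrays of the same letter in the first 3 groups, a black bar for the mean of 3 arrays and a ring where the probe was not detected. Letter A lies on top in all 4 groups for 6 of the 7 genes, and givinostat B and C lie below control B and C for the same 6.

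NFKB1 encodes the precursor of the canonical partner subunit. Its probe read 13.88, 13.53 and 13.76 in control, 13.72, 13.32 and 13.31 with givinostat, 14.04, 13.90 and 13.84 with sorafenib, and 13.88, 13.29 and 13.40 in the combination. All values lay between 13.29 and 14.04, a narrower span than for the other 5 members that had letter A on top in every group. Sorafenib had the highest mean (13.93 ± 0.10) and givinostat the lowest (13.45 ± 0.23).

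NFKB2 encodes the precursor that the alternative arm processes. Its brightest probe read 9.76, 8.91 and 9.17 in control, 9.48, 7.0 and 7.48 with givinostat, 9.91, 9.15 and 9.08 with sorafenib, and 10.04, 8.11 and 7.43 in the combination. A second NFKB2 probe, detected on 8 of 12 arrays, read 8.66, 7.09 and 7.31 in control and 8.61, 6.45 and 6.25 with givinostat. On that second probe the values were 8.94, 7.47 and 8.36 with sorafenib and 8.45, 6.49 and 6.42 in the combination. Both probes were lowest on arrays B and C of givinostat and of the combination, and the second was not above background on those 4 arrays. The third NFKB2 probe was detected on 0 of 12 arrays, with log2 values between 5.37 and 6.14.

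RELB encodes the subunit that pairs with processed NFKB2. It read 10.62, 9.79 and 9.45 in control, 9.85, 7.89 and 7.58 with givinostat, 10.91, 9.63 and 9.46 with sorafenib, and 10.35, 6.07 and 7.76 in the combination. The value on combination B, 6.07, was not above background and marks an upper limit. The other 2 combination arrays also lay far apart, and the group had a wide spread (8.06 ± 2.16), against 9.95 ± 0.60 in control and 10.00 ± 0.79 with sorafenib.

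TRAF1 is a signalling adaptor of TNF receptors and a well-known NF-kB target. It read 9.74, 8.79 and 8.71 in control, 9.17, 7.18 and 7.48 with givinostat, 10.03, 9.76 and 9.96 with sorafenib, and 9.65, 8.42 and 8.55 in the combination. All 3 sorafenib arrays lay above all 3 control arrays and above all 3 combination arrays, as for NFKBIE. With sorafenib its A array stood 0.17 above the mean of B and C, against 0.99 in control. A second TRAF1 probe was detected on 0 of 12 arrays, with log2 values from 5.67 to 6.59.

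REL, the canonical subunit whose gene is often gained in Hodgkin lymphoma, and ICAM1, an adhesion molecule that NF-kB induces, were near background. Of the REL probes 1 was detected on control A alone, at 6.93, with the other 11 values between 5.54 and 6.55, and the second on 0 of 12 arrays, between 5.22 and 5.50. ICAM1 was detected on 0 of 12 arrays, with log2 values between 5.40 and 6.41 and raw intensities between 382.7 and 589.6. These probes give a bound and no direction, and a low probe signal does not show that the mRNA was absent.

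Givinostat alone was compared with control to ask how the deacetylase inhibitor acted on these genes. The estimated log2 change was below 0 for 6 of 7 members, all but NFKBIE, with a median of -0.91 against 0 over all 8079 genes tested. No member passed limma's test at an adjusted p under 0.05 (0 of 7, where 0.0866% of all genes passed), and 1 member, TRAF1, had an unadjusted p under 0.05 (12.9% of all genes did). The size and the error were largest for RELB, -1.52 ± 0.93 (SE; 2.86-fold lower; adjusted p = 0.539), followed by NFKB2, -1.30 ± 0.70 (2.45-fold lower; adjusted p = 0.477). TRAF1 was estimated at -1.14 ± 0.49, a 2.20-fold lower level with an adjusted p of 0.364. TNFAIP3 (-0.91 ± 0.66) and NFKBIA (-0.90 ± 0.57) had adjusted p-values of 0.620 and 0.551. NFKB1 was estimated at -0.27 ± 0.18 and NFKBIE at 0.16 ± 0.22, with adjusted p-values of 0.569 and 0.819.

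Taken within letters, the differences between givinostat and control were all below 0 for the same 6 members, where 21.2% of all genes were lower in all 3 letters. TNFAIP3 differed by -0.71, -1.20 and -0.82 in letters A, B and C, NFKBIA by -0.32, -1.02 and -1.36, and TRAF1 by -0.56, -1.61 and -1.23. RELB differed by -0.78, -1.90 and -1.87 and NFKB2 by -0.28, -1.91 and -1.69, so each of these 5 genes had its smallest difference in letter A. With 1 array left out, the estimate ranged from -2.04 to -0.80 for NFKB2, -2.22 to -1.08 for RELB, -1.75 to -0.75 for TRAF1, -1.44 to -0.48 for TNFAIP3 and -1.43 to -0.58 for NFKBIA, in each case lowest without givinostat A. Across genes, arrays of the same letter deviated together in control, givinostat and sorafenib, which is why the letter was also fitted as a replicate block. With this block on the 9 arrays of those 3 groups, TNFAIP3 (SE 0.13, adjusted p = 0.0277) and RELB (SE 0.22, adjusted p = 0.0292) passed limma's test at an unaltered log2 change, 2 of 7 members where 1.81% of all genes passed. With the block on all 12 arrays only TNFAIP3 passed (adjusted p = 0.0317), where 2.05% of all genes did, and RELB had an adjusted p of 0.187. NFKBIA, TRAF1 and NFKB2 had adjusted p-values of 0.074, 0.106 and 0.0896 in the block of 9 arrays.

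**Figure D2:**
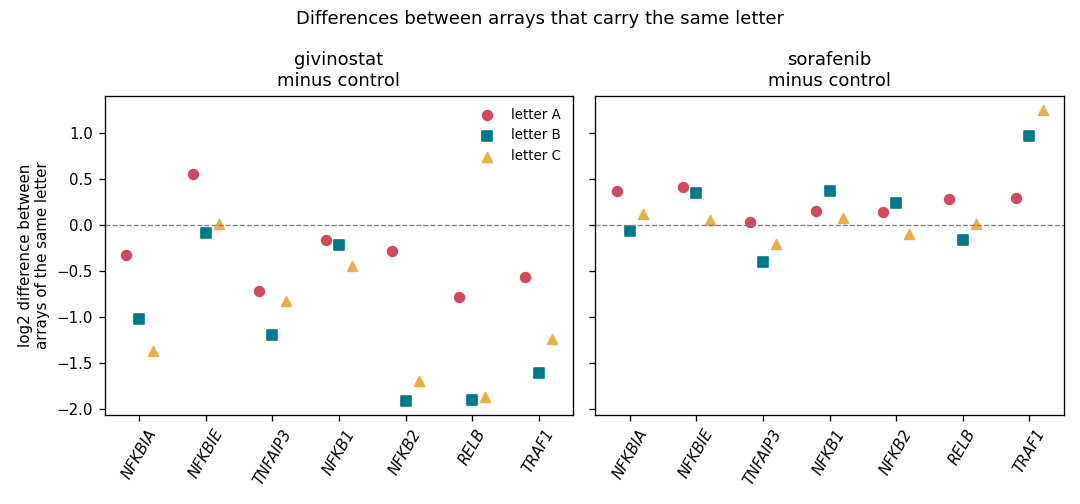
Log2 difference (vertical axis) between arrays of the same letter for the 7 tested members for each drug against control, with colour and shape for the letter and a dashed line at 0. With givinostat 6 members lie below 0 in all 3 letters, and with sorafenib TRAF1, NFKBIE and NFKB1 lie above 0 in all 3.

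Sorafenib alone was compared with control in the same way. The estimates were small for most members, with a median log2 change of 0.14 against 0 over all genes, and 0 of 7 members passed limma's test where 3.38% of all genes did. None had an unadjusted p under 0.05, against 19.9% of all genes. TRAF1 had the largest estimate, 0.84 ± 0.49 (1.79-fold higher; adjusted p = 0.38), with letter differences of 0.30, 0.97 and 1.25. NFKBIE (0.42, 0.35 and 0.05) and NFKB1 (0.16, 0.37 and 0.08) were also higher in all 3 letters. The share of all genes with that pattern was not counted, so it is not read as a trait of these members. With the letter as a block on the 9 arrays 0 of 7 members passed, where 8.84% of all genes did. The arrays of TRAF1 and those of NFKBIE (0.27 ± 0.22; adjusted p = 0.546) did not overlap with control, 2 of 7 members where 25.6% of all genes showed no overlap. RELB (0.05 ± 0.93), NFKB2 (0.10 ± 0.70), NFKBIA (0.14 ± 0.57), NFKB1 (0.20 ± 0.18) and TNFAIP3 (-0.19 ± 0.66) had adjusted p-values between 0.585 and 0.984. In this fit without the letter, the 95% interval of the change ran from -2.01 to 2.10 for RELB and from -0.19 to 0.60 for NFKB1. With the letter as a block on the 9 arrays the SE was 0.22 for RELB and 0.12 for NFKB1, at unaltered log2 changes. The letter differences of RELB were 0.29, -0.16 and 0.01. With the letter as a block on all arrays, the combination included, the SE of RELB was 0.545, against 0.93 without the letter. The fit with an SE of 0.22 both added the letter and left out the combination arrays. How much each of these narrowed the RELB interval was not tested.

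The combination was compared with control and with each drug alone, to see whether both drugs together differed from either. Against control all 7 estimates were below 0, with a median of -0.61 against -0.02 over all genes, and 0 of 7 members passed where 6.99% of all genes did. None reached an unadjusted p under 0.05, against 24% of all genes. Combination A deviated together with the A arrays of the other groups, but combination B and C did not pair by letter. For that reason no differences within letters are given here. RELB was estimated at -1.89 ± 0.93 (adjusted p = 0.246), and without combination B, where RELB was not detected, the estimate was -0.91 (adjusted p = 0.584). Without combination A the estimate was -3.05 and passed the test with an adjusted p of 0.0484. That estimate rests on combination B and C alone, so in part on the value that was not detected. TNFAIP3 was estimated at -0.91 ± 0.66 (adjusted p = 0.439). NFKB2 (-0.76 ± 0.70), NFKBIA (-0.61 ± 0.57), NFKBIE (-0.33 ± 0.22), TRAF1 (-0.21 ± 0.49) and NFKB1 (-0.20 ± 0.18) had adjusted p-values between 0.402 and 0.842.

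Against givinostat alone, the combination had 0 of 7 members past the test, where 1.68% of all genes passed, and 1 with an unadjusted p under 0.05, against 19.9% of all genes. That member was NFKBIE, at -0.49 ± 0.22 (adjusted p = 0.25), and -0.40 without combination B, where it was not above background (adjusted p = 0.46). TRAF1 was estimated in the other direction, at 0.93 ± 0.49 (1.91-fold higher; adjusted p = 0.322). TNFAIP3 was estimated at 0.00 ± 0.66, with a 95% interval from -1.46 to 1.46. NFKB1 was estimated at 0.08 ± 0.18, with an interval from -0.32 to 0.47.

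Against sorafenib alone, all 7 estimates were below 0, with a median of -0.75 against -0.02 over all genes. Again 0 of 7 members passed, where 0.359% of all genes did, and 2 had an unadjusted p under 0.05, against 15.6% of all genes: NFKBIE at -0.60 ± 0.22 (adjusted p = 0.231) and NFKB1 at -0.40 ± 0.18 (adjusted p = 0.314). Without combination B the NFKBIE estimate was -0.52 (adjusted p = 0.476). RELB was estimated at -1.94 ± 0.93 (adjusted p = 0.347), at -0.95 without combination B, where it was not detected, and at -3.10 without combination A. TRAF1 was estimated at -1.05 ± 0.49 (2.07-fold lower; adjusted p = 0.339). Its arrays and those of NFKBIE did not overlap between the groups, 2 of 7 members where 20% of all genes showed no overlap.

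The interaction asked whether the change in the combination differed from the sum of the changes with each drug on the log2 scale. No gene passed in this comparison (0% of all genes, and 5.85% at an unadjusted p under 0.05), so 0 of 7 members did. NFKBIE had an unadjusted p of 0.0332, with an interaction of -0.76 ± 0.31 (adjusted p = 0.822), and -0.69 without combination B (adjusted p = 0.928). For TRAF1 the interaction was 0.09 ± 0.70, with a 95% interval from -1.45 to 1.63. The comparisons against control share the control arrays, and those of the combination share its arrays, so their counts are not independent of each other.

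**Figure D3:**
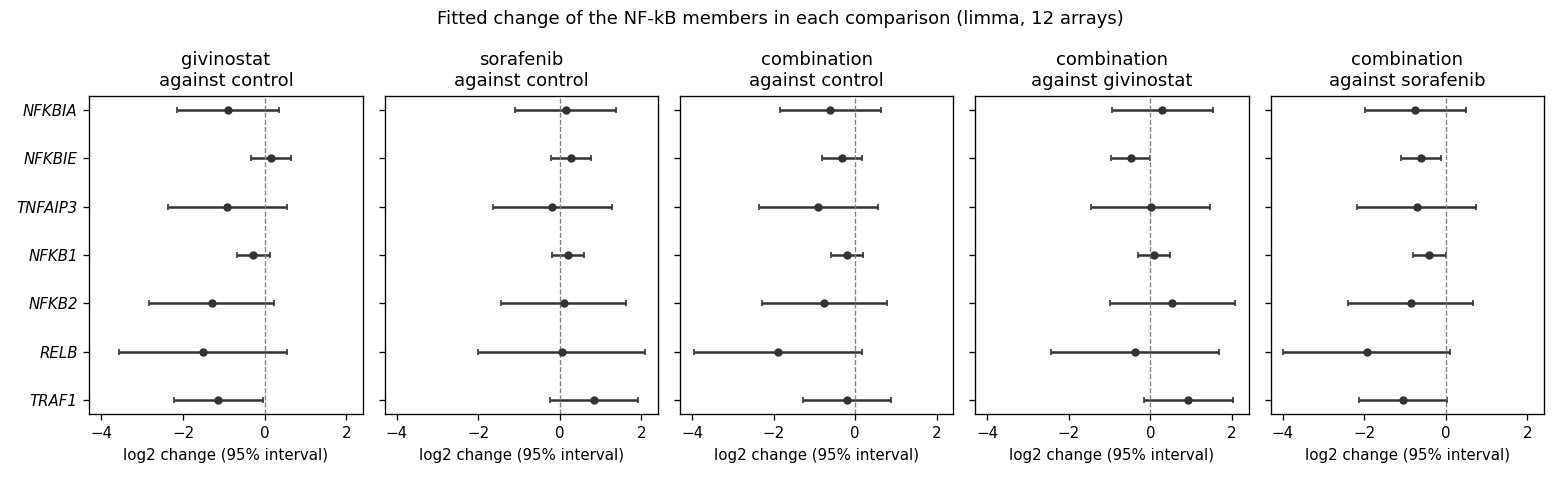
Fitted log2 change (horizontal axis) with its 95% interval from limma for the 7 tested members in 5 comparisons, each from 3 arrays per group, with a dashed line at 0. Intervals are widest for RELB, NFKB2 and TNFAIP3 and narrow for NFKB1 and NFKBIE, and the estimates with givinostat lie below 0 for 6 genes.

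The width of the intervals follows from the spread within groups, which for 5 of the tested members was among the largest of all genes. The within-group SD was 1.34 for RELB, 0.995 for NFKB2, 0.95 for TNFAIP3, 0.80 for NFKBIA and 0.70 for TRAF1, against a median of 0.25 over all genes. These values stood at percentiles 99.98, 99.91, 99.84, 99.44 and 98.33 of all genes tested, whereas NFKBIE (0.29) and NFKB1 (0.22) stood at 59.81 and 41.38. With the letter in the fit of the 9 arrays that it pairs, the SD was 0.33 for RELB, 0.51 for NFKB2, 0.14 for TNFAIP3, 0.29 for NFKBIA and 0.49 for TRAF1, against a median of 0.19. In that fit, which left out the combination arrays, TNFAIP3 varied less than the median gene, and NFKB2 and TRAF1 varied most of these 5. With the letter fitted on all arrays the SD was 0.794 for RELB, 0.56 for NFKB2 and 0.405 for TRAF1. It was 0.321 for NFKBIA and 0.207 for TNFAIP3, against a median of 0.205 over all genes. The letters did not pair combination B and C. The RELB values of 1.34 and 0.794 include combination B, where RELB was not above background.

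**Figure D4:**
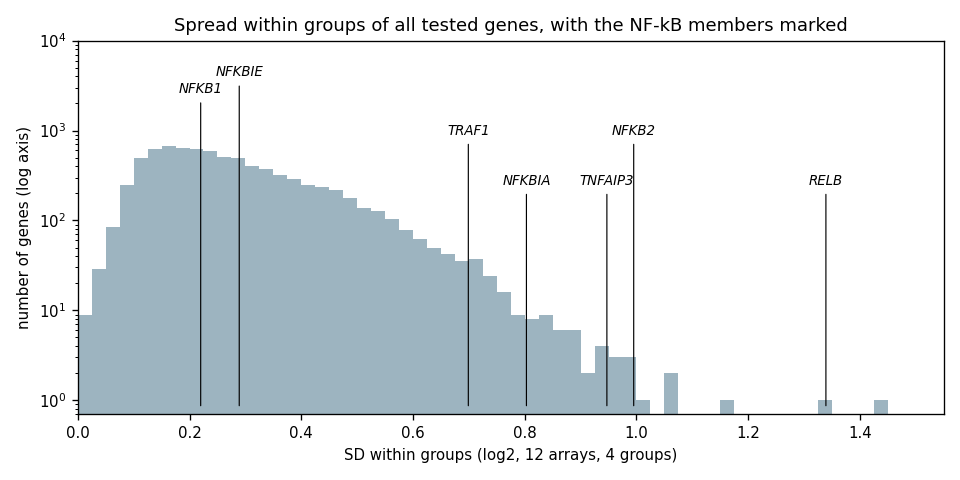
Number of genes (vertical log axis) by within-group SD of log2 intensity over 12 arrays in 4 groups (horizontal axis), with a line for each of the 7 tested members. RELB at 1.34 and NFKB2 at 0.995 lie in the far tail, and NFKB1 at 0.22 and NFKBIE at 0.29 lie near the median of 0.25.

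The arrays with letter A were the high ones. Array A was the highest of its group in all 4 groups for 6 of 7 members, all but NFKBIE, where 8.4% of all genes had that pattern. Letters B and C were highest in all 4 groups for 0 members, and for 2.5% and 3.3% of all genes. Combination A paired with the other A arrays, but combination B and C did not pair by letter. The shares for B and C are therefore not comparable with the share for A. The excess of A over the mean of B and C was for RELB 1.00 in control, 2.11 with givinostat, 1.36 with sorafenib and 3.44 in the combination. For NFKB2 it was 0.72, 2.24, 0.79 and 2.27 in the same order, and for NFKBIA 0.71, 1.58, 1.05 and 1.87. For TNFAIP3 it was 1.28, 1.57, 1.62 and 1.97, and for NFKB1 0.23, 0.41, 0.17 and 0.53. The excess in the groups with givinostat was larger than in control for all 7 members. With sorafenib alone it was also larger than in control for NFKBIA, NFKBIE, NFKB2, RELB and TNFAIP3, and smaller for NFKB1 and TRAF1. How many of all genes share these orders was not counted. The RELB excess in the combination includes combination B, where RELB was not above background. What letter A stands for, and its part in the results, was not tested.

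Other genes of the pathway, from lists chosen by function, were read in the same fit. For each drug against control they were also read with the letter as a block on the 9 arrays it pairs, and genes named for that fit alone were picked after their values were seen. In that fit 1.81% of all genes passed with givinostat and 8.84% with sorafenib. Of 15 other subunits, inhibitors and co-factors 12 were tested and 0 passed in any of the 6 comparisons without the block. With it, BCL3, an atypical IkB that acts in the nucleus, fell with sorafenib by 0.56 on the log2 scale (adjusted p = 0.0341, and 0.403 without the block). With givinostat their median log2 change was 0.00, with 6 above and 6 below 0. RELA, the transactivating canonical subunit, was estimated at 0.11 (adjusted p = 0.855) and TNIP2, an A20-binding protein, at -1.05 (adjusted p = 0.215). ZFAND5, a zinc finger protein with an A20-type domain, was at 0.68 (adjusted p = 0.0826, 0.0562 with the block and 0.0292 with a block on all 12 arrays). With sorafenib NKRF, a repressor of NF-kB genes, was at -0.66 (adjusted p = 0.15) and NFKBIZ, an atypical nuclear IkB, at -0.46 (adjusted p = 0.234).

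Of 29 kinases and adaptors 21 were tested, and 1 passed in 1 comparison without the block: RBCK1, a subunit of the linear ubiquitin ligase, rose in the combination against givinostat by 0.77 (adjusted p = 0.0388). In that comparison 1.68% of all genes passed. The median log2 change of the 21 genes was 0.05 with givinostat and 0.12 with sorafenib, against 0 over all genes in both. With sorafenib TRAF5, an adaptor of TNF-family receptors, was at 0.92 (adjusted p = 0.145), and BIRC2, a ubiquitin ligase that keeps the alternative arm off, at 0.61 (adjusted p = 0.144). SHARPIN, a partner of RBCK1 in the same ligase, was at 0.77 with sorafenib (adjusted p = 0.138; 0.0472 with the block). With the block TANK, a TRAF-binding adaptor, also rose with sorafenib, by 0.81 (adjusted p = 0.0189 with the block and 0.251 without). A block on all 12 arrays added BIRC2 (adjusted p = 0.0471) and RBCK1 (adjusted p = 0.0466) with sorafenib, where 706 of all 8079 genes passed. IRAK1, a kinase below Toll-like receptors, was at -0.80 with givinostat (adjusted p = 0.268).

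Of 20 ligands and receptors 8 were tested, and this was the list with most calls without the block. There 2 rose and 1 fell with sorafenib, where 3.38% of all genes passed. In the combination 1 rose and 1 fell against control, where 6.99% of all genes passed, and 1 rose against givinostat, where 1.68% did. TNFSF13B, which encodes the B cell survival factor BAFF, rose by 1.30 ± 0.16 with sorafenib (adjusted p = 0.00323) and by 1.59 ± 0.16 in the combination (adjusted p = 0.000847), and it was higher in the combination than with givinostat by 1.15 (adjusted p = 0.00816). Its control values were 8.74, 9.09 and 9.13, its sorafenib values 10.29, 10.17 and 10.40 and its combination values 10.70, 10.68 and 10.36, so control lay apart from both. TNFSF14, the ligand LIGHT, rose by 1.57 ± 0.35 with sorafenib (adjusted p = 0.0409). TNFRSF8 fell by 0.98 on the log2 scale with sorafenib (adjusted p = 0.0316). LTA, the cytokine lymphotoxin alpha, read 11.82, 10.99 and 11.44 in control and 9.83, 8.40 and 8.74 in the combination, in which it fell by 2.42 on the log2 scale (SE 0.42; adjusted p = 0.00943). With givinostat LTA read 10.00, 8.77 and 8.72, an estimate of -2.25 ± 0.42 (adjusted p = 0.0697; 0.0156 with the block). TNF, TNFRSF1A, TNFRSF1B and TNFRSF13C passed in none of the 6 comparisons.

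Of 43 other targets 20 were tested and 0 passed in any comparison without the block. With it, 3 fell with givinostat, where 1.81% of all genes passed, and 2 rose and 3 fell with sorafenib, where 8.84% did. With givinostat 17 of the 20 estimates were below 0, with a median of -0.27 against 0 over all genes. In the combination 16 of 20 were below 0, with a median of -0.21. With sorafenib 8 of 20 were below 0 and the median was 0.07. CCL5, a chemokine, was at -0.78 with givinostat (adjusted p = 0.244; 0.0407 with the block) and at 0.87 with sorafenib (adjusted p = 0.109; 0.0177 with the block). With the block, STAT5A, a signal transducer of cytokine receptors, fell with givinostat by 0.87 on the log2 scale (adjusted p = 0.0294, and 0.344 without the block). EBI3, a cytokine subunit, fell with givinostat by 0.72 (adjusted p = 0.0498 with the block and 0.662 without). With a block on all 12 arrays EBI3 did not pass (adjusted p = 0.183). IER3, a stress-induced survival gene, was at -1.41 with sorafenib (adjusted p = 0.0981; 0.0177 with the block). IRF1, a transcription factor of the interferon response, was at 0.82 with sorafenib (adjusted p = 0.0579; 0.0137 with the block). IRF8, a lymphoid and myeloid transcription factor, fell with sorafenib by 0.61 on the log2 scale (adjusted p = 0.0294 with the block and 0.191 without). JUNB, a subunit of AP-1, fell with sorafenib by 0.90 (adjusted p = 0.0163 with the block and 0.344 without). CD86, a co-stimulatory molecule, was at 0.49 with sorafenib (adjusted p = 0.139; 0.0505 with the block and 0.0305 with a block on all 12 arrays).

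**Figure D5:**
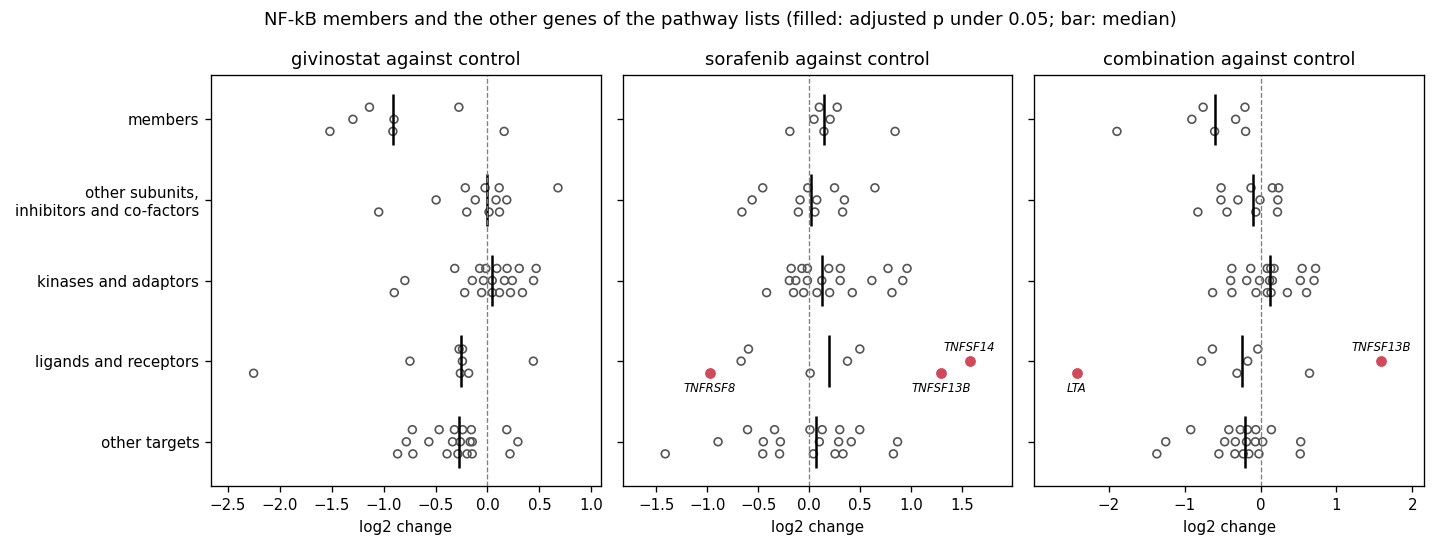
Log2 change against control (horizontal axis) of the 7 tested members and of the tested genes of 4 pathway lists (rows), 1 circle per gene, filled where limma's adjusted p was under 0.05 without the block, with a black bar at each list's median. With givinostat the members' median is -0.91, and the median of each other list is -0.27 or nearer to 0.

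The mean of the 7 tested members, each centred on its own mean over the 12 arrays, gave a mean profile of 0.80, 0.07 and 0.13 in control, 0.47, -1.06 and -0.93 with givinostat, 1.04, 0.26 and 0.31 with sorafenib, and 0.78, -1.01 and -0.87 in the combination. Of the members, which are themselves part of this mean, NFKBIA lay closest to it, with a root mean square distance of 0.14 over the 12 arrays. RELB lay farthest, at 0.74, and 36.2% of genes outside the list lay nearer than that. The members other than NFKBIA lay at 0.31 or more, farther than the 5 outside genes named next. The 5 genes outside the list that lay nearest were ADAM8 (0.23), PBX4 (0.23), SLC2A9 (0.28), RNF19B (0.28) and MAL (0.28), against a median of 0.79 over all other genes. ADAM8, a membrane metalloprotease, read 12.33, 11.49 and 11.39 in control, 11.81, 10.44 and 10.41 with givinostat, 12.31, 11.12 and 11.40 with sorafenib, and 12, 10.83 and 10.51 in the combination. Its A array was the highest of each group, and its estimate with givinostat was -0.85 (adjusted p = 0.5). None of these 5 genes passed limma's test against control in any of the 3 treated groups.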

How the data were processed

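L-540 RNA was measured on 12 Illumina arrays in 4 groups. Per the submitters' processing notes the authors used BeadStudio, with no version given. The deposited raw table holds linear bead intensity per probe and array, without normalization, and a fraction per the file headers called a detection p-value, read here as 1 minus that p because it rose with intensity. The deposited series matrix holds intensity values that equal quantile-normalized raw values (within 0.276% at equal rank).

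Raw values were background corrected, quantile normalized and put on the log2 scale with neqc of limma 3.58.1 (R 4.3.3, offset 16). The brightest probe per gene among 11801 kept probes gave 8079 genes. Of all probes 28098 had 1 symbol in the platform annotation, 13 several and 20692 none listed. The Entrez identifiers of 28059 probes matched RefSeq, with 0 symbols updated. limma's lmFit and eBayes were fitted on all 12 arrays (8 residual degrees of freedom), with Benjamini-Hochberg adjustment over all genes. The number of arrays limits the precision. The test was tried on simulated data first. Their noise was independent between arrays, with no letter effect, so that trial does not cover the same-letter correlations given below.

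Same-letter deviations correlated across genes at 0.177 to 0.408 in 9 pairs among control, givinostat and sorafenib, and at -0.139 to 0.363 with the combination. Combination A correlated with the other A arrays at 0.31 to 0.363. Combination B correlated with the C arrays (0.158 to 0.316) and combination C with the B arrays (0.234 to 0.29). The letters were therefore taken as pairs, from the data, only in the first 3 groups. Alternatives were background, scaling, filter, probe choice, the block and leaving out arrays. Named pathway genes were those past the threshold in any comparison and up to 4 more per list with the lowest p against control. Members and lists were chosen with earlier results of these data known.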

Additional observations from a re-analysis of the deposited data

How the results depend on the processing

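Each comparison was refitted under 20 other settings, 12 of which left out 1 array, and on letters B and C only, a choice made after seeing the data. The block of 9 arrays applies only to the single drugs against control. The fits are not independent of each other. The series matrix gave nearly the same values as no background correction, and many arrays left out lay outside the groups compared. In 117 of these 122 fits 0 members passed limma's test, as in the values reported. The other 5 were these. With givinostat the replicate block on all 12 arrays gave 1 member (TNFAIP3), and the replicate block without the combination arrays gave 2 (RELB and TNFAIP3). In the combination against control the block gave 1 (TNFAIP3, adjusted p = 0.0105), though the letters did not pair its B and C arrays. Letters B and C only gave 2 there (NFKBIA, adjusted p = 0.0437, and TNFAIP3, adjusted p = 0.0369), and leaving out arrays in turn gave 0 to 1, the 1 being RELB without combination A. The block changed no other member's call.

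Of 836 refitted member values 53 changed sign, none with givinostat except NFKBIE, which went to -0.04 on letters B and C and ranged from -0.01 to 0.34 with arrays left out. With sorafenib RELB went to -0.076 on letters B and C, and with arrays left out RELB ranged from -0.41 to 0.38, NFKBIA from -0.21 to 0.39, NFKB2 from -0.17 to 0.34 and TNFAIP3 from -0.73 to 0.23. In the combination against control TRAF1 ranged from -0.59 to 0.12 with arrays left out. Scaling arrays to 1 median in place of quantiles moved the median of all genes by -0.27, -0.37, -0.30 and -0.40 in the 4 comparisons with the combination in their order above, so changes there are relative to that shift. In the combination against givinostat that scaling gave NFKBIA -0.063, NFKB1 -0.34 and TNFAIP3 -0.42, and letters B and C only gave TNFAIP3 -0.13. With arrays left out, NFKBIA then ranged from -0.33 to 0.82, NFKB1 from -0.10 to 0.21, NFKB2 from -0.22 to 1.28, RELB from -1.53 to 0.62 and TNFAIP3 from -0.65 to 0.53. For the interaction the scaling gave NFKBIA -0.22, TNFAIP3 -0.25 and TRAF1 -0.29, no background correction and the series matrix each gave TRAF1 -0.13, and the mean of detected probes gave NFKB2 -0.056. With arrays left out, the interaction ranged from -0.47 to 0.68 for NFKBIA, -0.30 to 0.008 for NFKB1, -0.32 to 1.18 for NFKB2, -1.58 to 0.58 for RELB, -0.46 to 0.74 for TNFAIP3 and -0.30 to 0.70 for TRAF1. The causes were not tested.

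Over all genes the count past the threshold was 7 with givinostat (1 to 166 under other settings, 0 to 19 with arrays left out), 273 with sorafenib (24 to 714; 67 to 247) and 565 in the combination (96 to 1068; 195 to 529). It was 136 against givinostat (22 to 590; 14 to 136), 29 against sorafenib (6 to 175; 0 to 27) and 0 for the interaction in every fit. Median scaling turned the split of higher and lower calls from 157 and 116 to 11 and 13 with sorafenib, from 325 and 240 to 28 and 68 in the combination, from 77 and 59 to 6 and 48 against givinostat, and from 15 and 14 to 5 and 9 against sorafenib. Slide as a block was not run, since the headers name no slide, and levels were recomputed only as differences. The stricter filter tested 4 members and no filter 9. Without background correction the givinostat estimates of all 7 members lay nearer 0, among them -0.52 for NFKB2, -0.46 for TRAF1 and -0.77 for RELB. Signal near background limits NFKBIE and RELB on combination B and the second NFKB2 probe.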
